A study of Mus musculus with 22 samples.

Results

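Bone marrow mesenchymal stem cells (MSC) that lack Lama4 were compared with wild type MSC, both cultured without leukaemia cells, across all genes. The 8 libraries were taken by their titles, KO_MSC 1 to 4 against WT_MSC 1 to 4, out of 22 libraries in the series. The other 14 came from a co-culture with leukaemia cells of the MLL-AF9 type, and 8 of those, MSC sorted back out of it, are used near the end. WT_MSC carried the wild type genotype and KO_MSC was Lama4-/-. All 8 came from C57BL/6J mice aged 10 to 14 weeks, and all were cells that had grown in culture from marrow cells sorted as negative for lineage markers, CD45, CD31 and CD44 and positive for SCA1 and CD51. The labels do not say how many mice, cultures or passages stand behind the replicates, so the p-values measure only the spread between these libraries, which may be technical.

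Lama4 encodes the laminin α4 chain. Laminins are cross-shaped proteins of basement membranes, each built of an α, a β and a γ chain, and cells hold on to them through integrins, dystroglycan and other receptors. In bone marrow the α4 chain is laid down around vessels and by stromal cells, and those stromal cells also make the factors that keep blood stem cells in their niche. Cultured MSC make matrix, can turn into bone, cartilage and fat cells, and divide or rest depending on the state of the culture.

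Libraries held 15595872 to 24826876 assigned reads. Levels are given as CPM, counts scaled to library size with TMM normalization, which compares 1 gene between libraries but not genes of different length. A gene is called changed where edgeR's quasi-likelihood test gave a Benjamini-Hochberg adjusted p under 0.05 over the 13344 genes tested, and fold changes are KO_MSC over WT_MSC on the log2 scale. The median log2 fold change of all tested genes was 0.01.

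Lama4 followed the labels. It stood at 306, 288, 309 and 308 CPM in WT_MSC 1 to 4 and 0.932, 0.518, 0.398 and 0.322 CPM in KO_MSC 1 to 4, that is 303 ± 10.2 CPM across WT_MSC (SD, n = 4) and 0.542 ± 0.272 CPM across KO_MSC (SD, n = 4) (log2 fold change -9.11 with SE 0.29, adjusted p by edgeR = 6.86e-06). All 4 wild type libraries lay close together and all 4 knockout libraries were close to 0. Summed counts were 25018 against 38, a depth-corrected ratio of 576 (95% exact interval 419 to 814, counting error only). The 4 tested genes that lie nearest to Lama4 on chromosome 10 (GRCm38, 38965515 to 39110188) did not pass the threshold. Fam229b, 8.6 kb away, stood at 3.32, 5.13, 6.50 and 6.12 CPM in WT_MSC 1 to 4 and 4.88, 5.24, 5.41 and 5.47 CPM in KO_MSC 1 to 4, and the groups overlapped. Adjusted p was 0.239 for Tube1, which encodes epsilon-tubulin, 0.399 for the kinase gene Fyn and 0.32 for Traf3ip2, an adaptor of IL-17 signalling. Within 10 Mb of Lama4, 9 of 65 other tested genes were called (13.8%, against 11.6% of all tested genes), 2 higher and 7 lower in KO_MSC. Among them were Marcks, a membrane-bound actin regulator (0.96), Wasf1, which drives actin branching (-1.32), and the polyamine synthesis gene Amd1 (-0.81), all as log2 fold changes.

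The libraries carried stromal transcripts, and several defining markers of other cell types were at or near 0 reads, though not all of them. Col1a1, a chain of type I collagen, ran from 7293 to 15372 CPM over the 8 libraries, and Ly6a, which encodes SCA1, from 752 to 1513 CPM. Ptprc, which encodes CD45, had 6 reads over all 8 libraries, the endothelial cadherin gene Cdh5 had 2, and the Schwann cell gene Sox10, the muscle gene Myod1 and the macrophage gene Adgre1 had 0. Of the 15 listed pan-haematopoietic markers 1 was high enough to be tested, and their summed level was 2.20 to 3.46 CPM in WT_MSC and 0.776 to 2.85 CPM in KO_MSC. The Schwann and neural list summed to 379 to 609 CPM in WT_MSC and 468 to 819 CPM in KO_MSC, nearly all of it from the myelin gene Pmp22 (271 to 469 and 373 to 764 CPM) and the adhesion gene Ncam1 (89.3 to 132 and 49.8 to 119 CPM), and 0 of its 5 tested members were called by edgeR, 1 by DESeq2 and 1 at an unadjusted p under 0.05. The neutrophil list summed to 28.6 to 78.9 CPM in WT_MSC and 11.3 to 148 CPM in KO_MSC, most of it Lcn2, lipocalin 2, with KO_MSC 1 the highest, and Camp, an antimicrobial peptide gene, was called lower (log2 fold change -3.05, adjusted p by edgeR = 0.035). In the skeletal muscle list, at 12.3 to 31.6 CPM and 7.35 to 12.1 CPM, Acta1, skeletal actin, was called lower (log2 fold change -2.35, adjusted p by edgeR = 0.0266). The epithelial list summed to 1.94, 42.1, 49.1 and 45.6 CPM in WT_MSC 1 to 4 and 1.18 to 10.4 CPM in KO_MSC. Its 1 tested member, the keratin gene Krt19, had a log2 fold change of -3.60 and was called by DESeq2 but not by edgeR. The part of other cells in these levels was not tested. Endothelial markers summed to 44.9 to 61.0 CPM in WT_MSC and 72.2 to 91.3 CPM in KO_MSC, with 0 of 6 tested members called by edgeR, 2 by DESeq2 and 3 at an unadjusted p under 0.05. Over all 13344 tested genes DESeq2 called 3274, and the share at an unadjusted p under 0.05 is not given here. Cd44, whose protein was absent from the sorted starting cells, stood at 206 to 330.2 CPM in the cultured cells. Lepr, the leptin receptor that marks most stromal cells of adult marrow, had 16 reads in all. In bulk RNA a change in which cells a culture holds and a change in RNA per cell cannot be told apart.

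WT_MSC 1 did not resemble the other 3 wild type libraries. On the first principal component of log2 CPM, which held 66.7% of the variance, WT_MSC 2, 3 and 4 lay at 72.9, 71.6 and 73.0. WT_MSC 1 lay at -42.0, among KO_MSC 1 to 4 at -51.7, -47.4, -26.8 and -49.6. Sex-linked transcripts differed between the same libraries. Xist, made from the inactive X, was at 212 CPM in WT_MSC 1, 166 in KO_MSC 1 and 275 in KO_MSC 3 and at most 3.11 CPM in the other 5, while the Y-linked Ddx3y was at 0.806 CPM in WT_MSC 1, 1.68 in KO_MSC 3 and 37.8 CPM or more in the others, KO_MSC 1 included. No pair of libraries in a group was alike within sampling noise, but some pairs were far closer than others. Between WT_MSC 2, 3 and 4 the chi-square per degree of freedom was 4.26 to 7.95, and with WT_MSC 1 it was 182.5 to 228.6. KO_MSC 2 and 4 gave 6.59 and the other knockout pairs 53.6 to 114.1. The labels do not say whether the closer libraries share a source.

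**Figure D1:**
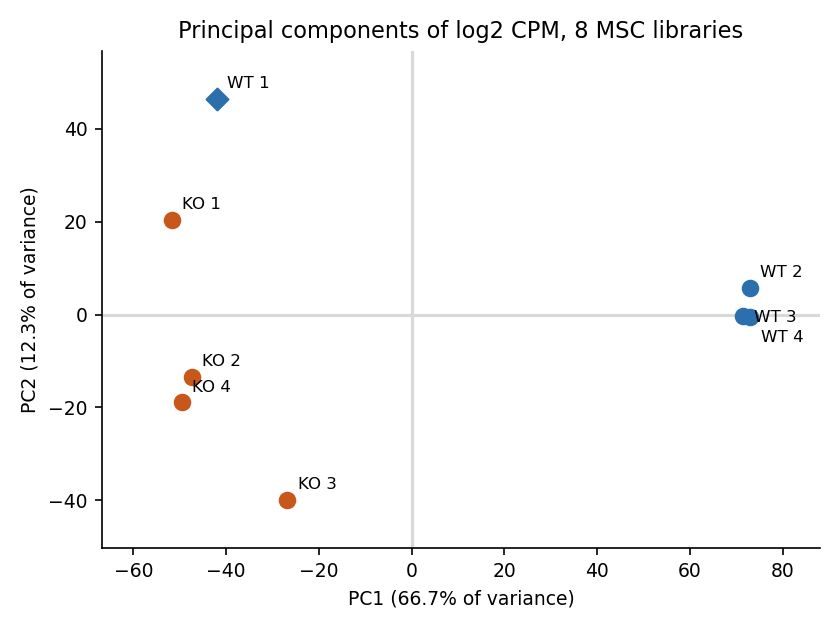
Principal components of log2 CPM in the 8 MSC libraries, with the first component (66.7% of variance) on the x axis and the second (12.3%) on the y axis, wild type in blue (WT_MSC 1 as a diamond) and knockout in orange. WT_MSC 2 to 4 sit together on the right, at 71.6 to 73.0, and WT_MSC 1 sits on the left with the 4 knockout libraries.

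In the comparison of all 8 libraries 1545 of 13344 genes were called (11.6%), 699 higher (5.24%) and 846 lower (6.34%) in KO_MSC. The libraries of the groups did not overlap in 2445 genes (18.3%), of which 1246 were higher (9.34%) and 1199 lower (8.99%). Without WT_MSC 1 the count was 6242 of 13558 (46.0%), 3270 higher (24.1%) and 2972 lower (21.9%), and it included all of the 1545. Without WT_MSC 2, 3 or 4 it was 55, 84 or 63, and without KO_MSC 1, 2, 3 or 4 it was 824, 122, 756 or 106. Each of the 8 libraries thus moved the count by more than 1.5 times, WT_MSC 1 upwards and the other 7 downwards. Among WT_MSC 2 to 4, KO_MSC 2 and KO_MSC 4, the 5 libraries with Ddx3y and without Xist, 8178 of 13622 genes were called.

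Where WT_MSC 1 lay was measured gene by gene. On log2(CPM + 0.5), 0 was set at the mean of WT_MSC 2 to 4 and 1 at the mean of KO_MSC. Over the 6242 genes called without it, WT_MSC 1 had a median position of 0.906. It was nearer to the KO_MSC mean in 4881 genes (78.2%) and at a position under 0.25 in 750 (12.0%). The same measure put KO_MSC 1 nearer to wild type in 243 of 824 genes (29.5%) and KO_MSC 3 in 219 of 756 (29.0%). WT_MSC 2, 3 and 4 and KO_MSC 2 and 4 were nearer to the other genotype in 0 of 55, 84, 63, 122 and 106 genes. All of these fits kept WT_MSC 1 and called far fewer genes. Their shares rest on unlike gene sets and cannot be set directly against 78.2%. So in most genes that separate WT_MSC 2 to 4 from KO_MSC, the wild type library WT_MSC 1 was nearer to the knockout libraries.

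**Figure D2:**
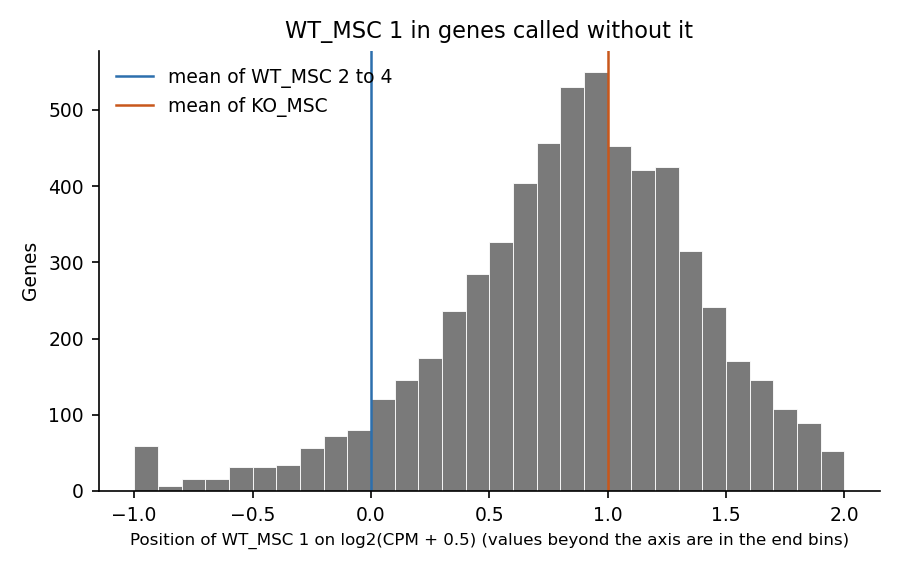
Number of genes (y axis) by the position of WT_MSC 1 (x axis, no unit) between the mean of WT_MSC 2 to 4 at 0 and the mean of KO_MSC at 1, over the 6242 genes called without WT_MSC 1. The peak lies just under 1 and the median is 0.906.

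The position of genes on chromosomes also followed this division, a pattern looked for after the values were seen and given with no test. For 9598 tested genes with a mean of at least 3 on the log2 CPM scale, the log2 difference of each wild type library from the KO_MSC mean was taken and its median found for each of 20 chromosomes. On chromosomes 3, 4, 5, 7, 12 and 16 the medians of WT_MSC 2 to 4 were all between -0.31 and -0.23, which is 0.807 to 0.853 of the knockout level. On chromosomes 8, 18 and 19 they were between 0.30 and 0.40, or 1.23 to 1.32 times that level. On the other 11 chromosomes they were between 0.03 and 0.15. The 3 libraries thus gave nearly the same value on each chromosome, and 9 chromosomes stood apart.

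WT_MSC 1 was between -0.05 and 0.04 on the first 6 of these chromosomes and between -0.01 and 0.05 on the next 3. Each knockout library, set against the mean of the other 3, stayed between -0.05 and 0.06 on all 20. The displacement of WT_MSC 2 to 4 ran along whole chromosomes. With each chromosome's genes split by position into 3 stretches of equal gene number, the 18 medians of the chromosomes that were low in WT_MSC 2 to 4 lay between -0.34 and -0.20, and the 9 medians of those that were high between 0.25 and 0.45. On chromosome 8, 81.9% of 551 genes were higher in WT_MSC 2 to 4 than in KO_MSC on average, and on chromosome 12 it was 19.3% of 331.

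The direction of calls in the comparison of all 8 libraries differed between these chromosomes. The low 6 held 346 genes called higher in KO_MSC and 103 called lower of 4115 tested (10.9% called, against 11.6% of all genes). The high 3 held 41 higher and 219 lower of 1511 (17.2%), and the other 11 held 300 higher and 516 lower of 7407 (11.0%). Chromosome 10, where Lama4 lies, was not among the 9, with medians of 0.09 to 0.12 in WT_MSC 2 to 4 and 0.02 in WT_MSC 1. DNA was not analysed here, so the part of chromosome number in any gene's difference was not tested.

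**Figure D3:**
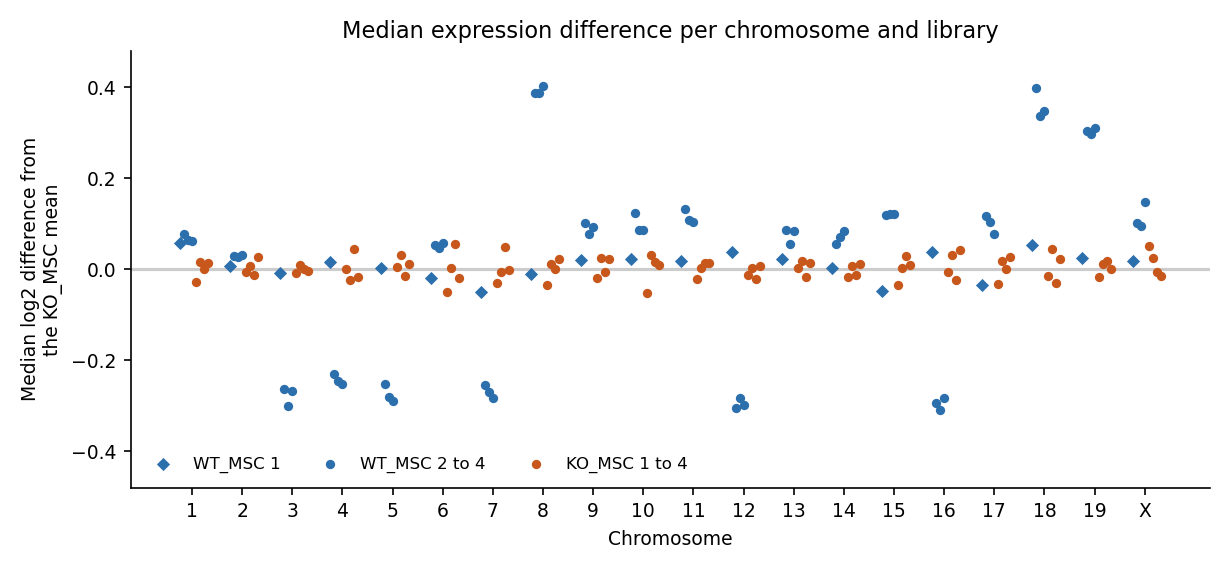
Median log2 difference from the KO_MSC mean (y axis) over the tested genes of each chromosome (x axis), 1 point per library, where each knockout point is set against the other 3 knockout libraries. WT_MSC 2 to 4 (blue circles) leave 0 together on chromosomes 3, 4, 5, 7, 12 and 16 (down to -0.31) and on 8, 18 and 19 (up to 0.40), while WT_MSC 1 (diamonds) stays with the knockout libraries.

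A set of 52 genes, Lama4 included, was called with all 8 libraries and again each time 1 library was left out (0.39% of the genes tested). Of these 29 were higher and 23 lower in KO_MSC, and no gene had overlapping groups, as this choice largely fixes. WT_MSC 1 was nearer to KO_MSC in 1 of the 52. The choice favours that as well, since every fit but 1 held WT_MSC 1 among the wild types. All 52 were also called, in the same direction, among the 5 libraries with Ddx3y and without Xist. These 5 are part of the 8, and 8178 of 13622 genes were called there, 1538 of the 1545 included. The choice of the 52 genes thus largely fixes this too, and the part of sex in their differences was not tested. Chromosome 10 held 9 of them (1.38% of its 652 tested genes), chromosome 3 held 8 (1.28%), chromosomes 5, 9 and 15 held 0. The values below describe the set by gene role.

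Patterning genes were among the lower ones. Hoxb9, a posterior homeobox gene that marks body position, stood at 32.9, 52.3, 52.7 and 49.0 CPM in WT_MSC 1 to 4 and 3.07, 2.91, 1.59 and 2.68 CPM in KO_MSC 1 to 4 (log2 fold change -4.18 with SE 0.25, adjusted p by edgeR = 0.000591). WT_MSC 1 was lower than the other wild types and still far above every knockout library. Its neighbour Hoxb8 stood at 2.77, 8.87, 7.88 and 8.32 CPM in WT_MSC 1 to 4 and 0.439, 0.518, 0.341 and 0.483 CPM in KO_MSC 1 to 4 (log2 fold change -3.95 with SE 0.42, adjusted p by edgeR = 0.00583). In KO_MSC no library exceeded 1 CPM of Hoxb8.

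Lower genes also included enzymes and a surface protein. Gatm, which makes the precursor of creatine, stood at 5.58, 21.1, 20.5 and 20.3 CPM in WT_MSC 1 to 4 and 1.04, 0.647, 0.171 and 0.965 CPM in KO_MSC 1 to 4 (log2 fold change -4.56 with SE 0.59, adjusted p by edgeR = 0.0101). Cd200, a surface glycoprotein that signals to myeloid cells, stood at 1.94, 5.56, 5.22 and 5.70 CPM in WT_MSC 1 to 4 and 0.384, 0.453, 0.455 and 0.483 CPM in KO_MSC 1 to 4 (log2 fold change -3.36 with SE 0.39, adjusted p by edgeR = 0.00768). In both, WT_MSC 1 lay between the other wild type libraries and the knockouts, at 5.58 and 1.94 CPM. Papss2, which makes the sulfate donor used on proteoglycans, was 76.7 ± 10.9 CPM across WT_MSC (SD, n = 4) and 35.6 ± 5.00 CPM across KO_MSC (SD, n = 4) (log2 fold change -1.10, adjusted p by edgeR = 0.00931). Fabp5, a fatty acid carrier, was 23.6 ± 1.2 CPM across WT_MSC (SD, n = 4) and 8.39 ± 1.82 CPM across KO_MSC (SD, n = 4) (log2 fold change -1.49, adjusted p by edgeR = 0.00686), with the 4 wild type libraries within 24.1, 25, 22.4 and 22.8 CPM.

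Several of the lower genes encode proteins of the cytoskeleton. Nexn, an F-actin binding protein of the Z-disc, stood at 53.8, 44.2, 49.5 and 47.5 CPM in WT_MSC 1 to 4 and 19.2, 21.1, 23.6 and 24.7 CPM in KO_MSC 1 to 4 (log2 fold change -1.14 with SE 0.11, adjusted p by edgeR = 0.0038). Synpo2, which bundles actin, stood at 28.1, 27.2, 27.3 and 32.0 CPM in WT_MSC 1 to 4 and 12.6, 17.4, 13.4 and 15.3 CPM in KO_MSC 1 to 4 (log2 fold change -0.97 with SE 0.12, adjusted p by edgeR = 0.00936). Cap2, which recycles actin monomers, was 8.57 ± 0.755 CPM across WT_MSC (SD, n = 4) and 3.82 ± 0.267 CPM across KO_MSC (SD, n = 4) (log2 fold change -1.17, adjusted p by edgeR = 0.00844). In these 3 genes WT_MSC 1 was not below the lowest of WT_MSC 2 to 4. Tubb6, a β-tubulin, was 184 ± 34.2 CPM across WT_MSC (SD, n = 4) and 65.3 ± 15.2 CPM across KO_MSC (SD, n = 4) (log2 fold change -1.49, adjusted p by edgeR = 0.0101). Asb2, a ubiquitin ligase subunit, stood at 1.85, 9.18, 6.07 and 5.64 CPM in WT_MSC 1 to 4 and 0.164, 0.388, 0.341 and 0.161 CPM in KO_MSC 1 to 4 (log2 fold change -4.41 with SE 0.57, adjusted p by edgeR = 0.00938). Hr, a nuclear receptor corepressor, the BCL2 family gene Bok and the zinc finger gene Zfp469 were lower too, with log2 fold changes of -1.63, -1.25 and -1.25.

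Among the higher genes, Kitl, which encodes the stem cell factor that blood progenitors need, stood at 45.8, 28.7, 31.8 and 37.5 CPM in WT_MSC 1 to 4 and 100.4, 90.3, 78.1 and 85.5 CPM in KO_MSC 1 to 4 (log2 fold change 1.30 with SE 0.16, adjusted p by edgeR = 0.00835). The groups did not overlap, and WT_MSC 1 was the highest of the wild types. Ptgfr, the receptor of prostaglandin F, stood at 9.05, 4.55, 4.63 and 4.16 CPM in WT_MSC 1 to 4 and 29.4, 48.7, 28.0 and 50.2 CPM in KO_MSC 1 to 4 (log2 fold change 2.80 with SE 0.33, adjusted p by edgeR = 0.00768). Lrp4, a receptor for agrin and for Wnt antagonists, was 18.3 ± 3.53 CPM across WT_MSC (SD, n = 4) and 57.8 ± 11.4 CPM across KO_MSC (SD, n = 4) (log2 fold change 1.66, adjusted p by edgeR = 0.00686). Kcp, a secreted modulator of BMP signalling, was 3.84 ± 0.214 CPM across WT_MSC (SD, n = 4) and 10.3 ± 0.446 CPM across KO_MSC (SD, n = 4) (log2 fold change 1.43, adjusted p by edgeR = 0.00259). Both groups were tight in Kcp, where every wild type library was between 3.68 and 4.15 CPM.

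Pcdh18, an adhesion protein of the protocadherin family, stood at 8.31, 6.03, 7.62 and 5.64 CPM in WT_MSC 1 to 4 and 25.8, 23.1, 29.2 and 29.0 CPM in KO_MSC 1 to 4 (log2 fold change 1.95 with SE 0.16, adjusted p by edgeR = 0.00219). St8sia2, which adds polysialic acid to the adhesion molecule NCAM, stood at 2.91, 4.98, 4.42 and 4.81 CPM in WT_MSC 1 to 4 and 43.1, 22.8, 24.2 and 18.7 CPM in KO_MSC 1 to 4 (log2 fold change 2.67 with SE 0.30, adjusted p by edgeR = 0.00686). Here WT_MSC 1 was the lowest of all 8 libraries. Dclk1, a microtubule-binding kinase of migrating neurons, was in the set too (log2 fold change 1.24, edgeR adjusted p = 0.00219).

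H2-M3, a non-classical MHC class I gene, was 5.36 ± 0.887 CPM across WT_MSC (SD, n = 4) and 14.0 ± 1.65 CPM across KO_MSC (SD, n = 4) (log2 fold change 1.38, adjusted p by edgeR = 0.00686). Lyz2, lysozyme, best known as a macrophage product, stood at 6.46, 5.48, 6.82 and 6.83 CPM in WT_MSC 1 to 4 and 28.3, 24.2, 17.0 and 21.5 CPM in KO_MSC 1 to 4 (log2 fold change 1.83 with SE 0.17, adjusted p by edgeR = 0.0038). Of 15 listed macrophage markers 4 could be tested, of which Lyz2 was called higher and Csf1r, a receptor of macrophage growth factors, lower (log2 fold change -1.21, adjusted p by edgeR = 0.0478). Summed macrophage markers, Lyz2 included, were at 18.0 to 19.7 CPM in WT_MSC and 25.7 to 38.5 CPM in KO_MSC, while Adgre1 had 0 reads in all 8 libraries, and Cd68 was at most 1.86 CPM. Qpct, a glutaminyl cyclase, and Smpdl3a, an acid sphingomyelinase-like enzyme, were higher by 1.48 and 1.36 on the log2 scale.

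**Figure D4:**
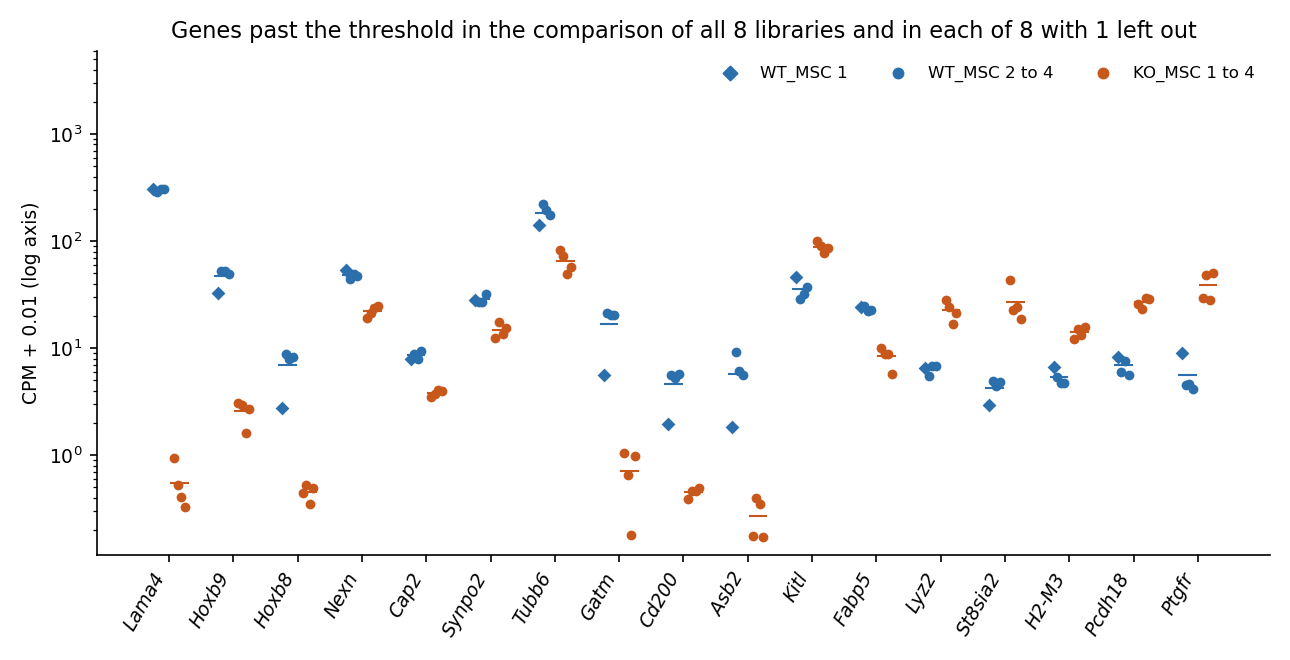
Level of 17 genes in each library (y axis, CPM + 0.01 on a log axis), wild type in blue (WT_MSC 1 as a diamond) and knockout in orange, with lines at the group means. All 17 passed the threshold with all 8 libraries and with any 1 left out. In Gatm, Cd200, Asb2 and Hoxb8 the diamond sits between the other wild types and the knockouts.

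Other genes were grouped into 45 lists by role, in each of which the share called may be set against 11.6% of all tested genes. Counts without WT_MSC 1 are to be set against 46.0% instead, and counts by DESeq2 against 3274 of 13344. The share of all tested genes at an unadjusted p under 0.05 is not given here. It is above 11.6%, so list counts at that cut show no excess by themselves. Over all lists 177 distinct genes were called with all 8 libraries and 583 without WT_MSC 1, but 8, 16 and 10 without WT_MSC 2, 3 and 4, and 108, 22, 100 and 17 without KO_MSC 1 to 4. By definition, every list call below that is not among the 52 genes was lost in at least 1 of these 8 fits. Among the laminin chains left, 2 of 10 were called, both higher. Lama1, the embryonic α1 chain, was 0.565 ± 0.343 CPM across WT_MSC (SD, n = 4) and 2.73 ± 0.937 CPM across KO_MSC (SD, n = 4) (log2 fold change 2.27, adjusted p by edgeR = 0.031), and Lamb1, the β1 chain that pairs with α4, stood at 251, 219.9, 213 and 213 CPM in WT_MSC 1 to 4 and 406, 279.7, 348 and 278 CPM in KO_MSC 1 to 4 (log2 fold change 0.55 with SE 0.14, adjusted p by edgeR = 0.0466). Lamc1, the γ1 partner chain and here chosen after its values were seen, was 529 ± 56.5 CPM across WT_MSC (SD, n = 4) and 858 ± 303 CPM across KO_MSC (SD, n = 4) and did not pass (adjusted p = 0.111), with KO_MSC 1 at the level of WT_MSC 1. Of 16 laminin receptor genes 0 passed edgeR's test, 5 had an unadjusted p under 0.05, and DESeq2 called 2. Without WT_MSC 1 edgeR called 7, where 46.0% of all tested genes were called.

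Basement membrane partners of laminin gave 3 genes called higher and 1 lower of 18. Nid2, a nidogen that ties laminin to collagen IV, stood at 79.5, 97.5, 107 and 109 CPM in WT_MSC 1 to 4 and 194, 181, 167 and 197 CPM in KO_MSC 1 to 4 (log2 fold change 0.91 with SE 0.12, adjusted p by edgeR = 0.0101). WT_MSC 1 was the lowest library here, and the groups did not overlap. Col18a1, the endostatin collagen, stood at 125, 45.4, 46.2 and 48.8 CPM in WT_MSC 1 to 4 and 243, 353, 404 and 357 CPM in KO_MSC 1 to 4 (log2 fold change 2.35 with SE 0.37, adjusted p by edgeR = 0.0167), and Agrn, agrin, at 39.4, 18.0, 18.4 and 19.8 CPM in WT_MSC 1 to 4 and 50.5, 46.6, 48.7 and 47.0 CPM in KO_MSC 1 to 4 (log2 fold change 1.01 with SE 0.25, adjusted p by edgeR = 0.0406). In both, WT_MSC 1 was the highest wild type library and lay at positions of 0.50 and 0.79 on the way to the knockouts. Smoc1, a calcium-binding matrix protein that inhibits BMP signalling, was lower, at 134 ± 28.9 CPM across WT_MSC (SD, n = 4) and 31.9 ± 22 CPM across KO_MSC (SD, n = 4) (log2 fold change -2.07, adjusted p by edgeR = 0.039).

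Matrix genes were called in both directions. Col14a1, which coats collagen fibrils, stood at 195, 59.7, 63.4 and 58.5 CPM in WT_MSC 1 to 4 and 1460.4, 927, 189 and 821 CPM in KO_MSC 1 to 4 (log2 fold change 3.17 with SE 0.67, adjusted p by edgeR = 0.0308), so that KO_MSC 3 fell below WT_MSC 1. Loxl1, a cross-linking enzyme of elastin, was lower (568 ± 185 against 266 ± 50.8 CPM, log2 fold change -1.10, adjusted p by edgeR = 0.0392), and these were 2 of 21 interstitial collagen and fibronectin genes. In Loxl1, WT_MSC 1 at 299 CPM lay inside the KO_MSC range of 234 to 341 CPM. Fmod, fibromodulin, a proteoglycan that controls fibril growth, stood at 5608, 4196, 4671 and 4248 CPM in WT_MSC 1 to 4 and 2228, 524, 869 and 495 CPM in KO_MSC 1 to 4 (log2 fold change -2.19 with SE 0.49, adjusted p by edgeR = 0.033), with all 4 knockout libraries below all 4 wild type libraries. In the same list of 11 small leucine-rich proteoglycans Ecm2 was called higher (log2 fold change 1.58, adjusted p by edgeR = 0.042), with KO_MSC 1 inside the wild type range. Of 23 matrix proteases and inhibitors 4 were called higher and 0 lower. They included Mmp19 (log2 fold change 0.52, adjusted p by edgeR = 0.0179), Mmp11 (log2 fold change 0.71, adjusted p by edgeR = 0.0386) and Adamts1 (log2 fold change 1.18, adjusted p by edgeR = 0.047).

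The contractile list had 4 genes lower and 0 higher of 16, with a median log2 fold change of -0.68. Without WT_MSC 1 the median was -0.39, with 6 lower and 3 higher. Beside Synpo2 these included Csrp1, a LIM protein of smooth muscle, at 928, 641, 622 and 612 CPM in WT_MSC 1 to 4 and 220.0, 333, 301 and 318 CPM in KO_MSC 1 to 4 (log2 fold change -1.26 with SE 0.19, adjusted p by edgeR = 0.0146). Here WT_MSC 1 was the highest library. Smtn, smoothelin, was 195 ± 38.5 CPM across WT_MSC (SD, n = 4) and 107 ± 5.64 CPM across KO_MSC (SD, n = 4) (log2 fold change -0.87, adjusted p by edgeR = 0.021). The list's geometric mean was 283 CPM in WT_MSC 1, 95.8 to 101 CPM in WT_MSC 2 to 4 and 81.3 to 131 CPM in KO_MSC, so WT_MSC 1 lay above both. Myh9, non-muscle myosin heavy chain and one of the most abundant transcripts called, stood at 2162, 2014, 1829 and 1938 CPM in WT_MSC 1 to 4 and 1413, 1608, 1294 and 1484 CPM in KO_MSC 1 to 4 (log2 fold change -0.45 with SE 0.12, adjusted p by edgeR = 0.0496).

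Niche factors gave 3 genes higher and 0 lower of 18. Beside Kitl, Angpt1, which encodes the angiopoietin that stabilises vessels and quiets stem cells, stood at 23.8, 7.62, 11.4 and 10.2 CPM in WT_MSC 1 to 4 and 42.7, 49.8, 43.6 and 51.1 CPM in KO_MSC 1 to 4 (log2 fold change 1.82 with SE 0.33, adjusted p by edgeR = 0.0233). Jag1, a Notch ligand, stood at 52.7, 26.8, 29.6 and 33.1 CPM in WT_MSC 1 to 4 and 78.9, 91.7, 77.1 and 111 CPM in KO_MSC 1 to 4 (log2 fold change 1.34 with SE 0.23, adjusted p by edgeR = 0.021). In both the lowest knockout library exceeded the highest wild type library, and WT_MSC 1 was the highest wild type. Cxcl12, the chemokine that holds stem cells in marrow, ranged from 606 to 2414 CPM in WT_MSC and from 1029 to 4388 CPM in KO_MSC, and the groups overlapped. Among the cytokines Il34, a ligand of the CSF1 receptor, stood at 16.5, 20.0, 24.5 and 24.5 CPM in WT_MSC 1 to 4 and 41.1, 134, 56.2 and 141 CPM in KO_MSC 1 to 4 (log2 fold change 2.12 with SE 0.41, adjusted p by edgeR = 0.0264), and Tnfaip3, a brake on NF-κB, was lower (log2 fold change -0.97, adjusted p by edgeR = 0.0494); these were the 2 called of 23.

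BMP and TGF-beta signalling had 6 genes higher and 0 lower of 35. Chrdl1, a BMP antagonist, stood at 44.9, 19.3, 33.9 and 22.6 CPM in WT_MSC 1 to 4 and 179, 240.1, 102 and 317 CPM in KO_MSC 1 to 4 (log2 fold change 2.79 with SE 0.40, adjusted p by edgeR = 0.0135). Tgfbr3, the co-receptor betaglycan, was 296 ± 24.0 CPM across WT_MSC (SD, n = 4) and 491 ± 43.1 CPM across KO_MSC (SD, n = 4) (log2 fold change 0.73, adjusted p by edgeR = 0.0146), and Id4, an inhibitor of helix-loop-helix factors and BMP target, was 64.9 ± 21.2 CPM across WT_MSC (SD, n = 4) and 213 ± 105 CPM across KO_MSC (SD, n = 4) (log2 fold change 1.72, adjusted p by edgeR = 0.0331). WT_MSC 1 was nearer to the knockouts in 19 of the 22 members called without it. The Wnt list had 2 higher and 2 lower of 29. Fzd8, a Wnt receptor, was 54.7 ± 4.80 CPM across WT_MSC (SD, n = 4) and 157 ± 70.2 CPM across KO_MSC (SD, n = 4) (log2 fold change 1.52, adjusted p by edgeR = 0.0264). Wnt10b, a ligand that favours bone over fat, stood at 0.785, 8.17, 7.30 and 8.26 CPM in WT_MSC 1 to 4 and 0.329, 0.841, 1.59 and 0.536 CPM in KO_MSC 1 to 4 (log2 fold change -2.89 with SE 0.76, adjusted p by edgeR = 0.0463), where WT_MSC 1 lay inside the knockout range. Of the IGF genes, the binding protein Igfbp3 was lower (255 ± 80.0 against 63.5 ± 22.7 CPM, log2 fold change -2.0, adjusted p by edgeR = 0.0221) and the IGFBP protease Pappa2 higher (16.9 ± 7.89 against 98.2 ± 83.8 CPM, log2 fold change 2.53, adjusted p by edgeR = 0.0452), 2 of 20 called. In Pappa2, KO_MSC 3 at 20.5 CPM was below WT_MSC 1 at 28.7 CPM.

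Transcription factors of body position differed in both directions. In Hox cluster B, 3 of 8 genes were lower and 0 higher, with a median log2 fold change of -2.52, Hoxb2 (1.52, 11.1, 6.66 and 6.48 CPM in WT_MSC 1 to 4 and 0.384, 1.16, 0.171 and 0.751 CPM in KO_MSC 1 to 4) being the third. In cluster C, Hoxc8 stood at 16.5, 31.3, 33.7 and 37.6 CPM in WT_MSC 1 to 4 and 3.45, 4.27, 0.797 and 3.22 CPM in KO_MSC 1 to 4 (log2 fold change -3.34 with SE 0.47, adjusted p by edgeR = 0.0135). Hoxc5 was lower too (log2 fold change -1.43, adjusted p by edgeR = 0.0484), while the more posterior Hoxc12 was higher (8.43 ± 0.909 against 14.9 ± 3.29 CPM, log2 fold change 0.82, adjusted p by edgeR = 0.0301). In Hoxc5, KO_MSC 2 at 1.75 CPM exceeded WT_MSC 1 at 1.62 CPM. In cluster A 0 of 10 tested genes passed edgeR's test, 1 had an unadjusted p under 0.05, and DESeq2 called 1. In cluster D 0 of 2 passed by either tool or at an unadjusted p under 0.05.

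Outside the Hox clusters 3 factors were higher and 6 lower of 38. En1, a homeobox gene of dorsal dermis and limb, stood at 9.78, 10.6, 9.64 and 8.02 CPM in WT_MSC 1 to 4 and 24.8, 17.0, 20.7 and 17.5 CPM in KO_MSC 1 to 4 (log2 fold change 1.07 with SE 0.15, adjusted p by edgeR = 0.0135), with WT_MSC 1 level with the other wild types. Pax9, of the vertebral column and palate, was 2.47 ± 0.639 CPM across WT_MSC (SD, n = 4) and 10.1 ± 4.48 CPM across KO_MSC (SD, n = 4) (log2 fold change 2.03, adjusted p by edgeR = 0.0197). Alx4, a homeobox gene of skull and limb, stood at 0.785, 9.10, 10.3 and 10.7 CPM in WT_MSC 1 to 4 and 0.439, 0.194, 0.341 and 0.161 CPM in KO_MSC 1 to 4 (log2 fold change -4.73 with SE 0.82, adjusted p by edgeR = 0.021), so that WT_MSC 1 was close to the knockouts. Msx2 and Six2, of skull and craniofacial mesenchyme, were lower, with log2 fold changes of -1.63 and -1.35 (edgeR adjusted p = 0.0311 and 0.0264).

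Of the lineage lists, 1 of 14 osteoblast, 1 of 16 adipocyte and 2 of 10 cartilage genes were called, shares on either side of the 11.6% of all tested genes. Dlx5, which drives bone formation, was lower (15.1 ± 4.74 against 2.74 ± 2.57 CPM, log2 fold change -2.45, adjusted p by edgeR = 0.0433). Sox9, the master regulator of cartilage, was higher (23.9 ± 5.30 against 48.8 ± 14.9 CPM, log2 fold change 1.03, adjusted p by edgeR = 0.033), whereas its target Col2a1, the cartilage collagen, was lower and stood at 137, 719.6, 539.5 and 519 CPM in WT_MSC 1 to 4 and 116, 115, 16.5 and 80.0 CPM in KO_MSC 1 to 4 (log2 fold change -2.55, adjusted p by edgeR = 0.0468). Of the MSC markers, Ly6a (log2 fold change 0.73, adjusted p by edgeR = 0.0315) and Pdgfra (log2 fold change 0.65, adjusted p by edgeR = 0.0389) were higher, and Cd200, Prrx1 (log2 fold change -0.55, adjusted p by edgeR = 0.036) and Nes (log2 fold change -1.48, adjusted p by edgeR = 0.0334) lower, 5 of 19 tested.

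Cell division genes separated WT_MSC 2 to 4 from all other libraries. The promoters of 3 of them are printed first because such genes share short sequence elements upstream of their starts. Mitotic genes are known for the TTTGAA element and for CCAAT boxes, and S phase genes for E2F sites such as TTTCCCGC and TTTGGCGC. Each line gives up to 250 bases that lie upstream of the outermost start of the gene in RefSeq (GRCm38.p6), on the gene's strand, with capitals on any of these 4 motifs in either direction. Mki67 encodes the proliferation marker Ki-67 (chr7:135716451-135716629, minus strand). Cdc20, an activator of the anaphase-promoting complex, was chosen after its values were seen (chr4:118437344-118437593, minus strand). Mcm5 is a subunit of the replicative helicase (chr8:75109259-75109467, plus strand).
Mki67: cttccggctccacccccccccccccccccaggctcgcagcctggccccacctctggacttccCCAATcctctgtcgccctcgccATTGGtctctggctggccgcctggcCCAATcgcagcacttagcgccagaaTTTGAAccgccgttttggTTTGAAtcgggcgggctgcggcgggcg
Cdc20: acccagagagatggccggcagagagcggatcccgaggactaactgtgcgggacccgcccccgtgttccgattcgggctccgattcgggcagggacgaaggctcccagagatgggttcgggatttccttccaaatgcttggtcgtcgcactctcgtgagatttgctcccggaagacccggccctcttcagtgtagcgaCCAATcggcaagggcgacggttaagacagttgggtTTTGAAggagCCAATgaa
Mcm5: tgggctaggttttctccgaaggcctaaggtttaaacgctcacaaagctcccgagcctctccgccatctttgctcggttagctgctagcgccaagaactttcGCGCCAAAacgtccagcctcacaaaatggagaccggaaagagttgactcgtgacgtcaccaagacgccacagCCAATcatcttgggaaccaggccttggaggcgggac
The Mki67 and Cdc20 stretches hold TTTGAA and CCAAT, and the Mcm5 stretch holds CCAAT and, read on the other strand, TTTGGCGC. No printed match overlaps another.

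Over windows of 300 bases (250 before and 50 after the start that the promoter table uses), TTTGAA on either strand occurred in 32 of the 42 mitosis and G2 genes with a RefSeq promoter (76.2%). It occurred in 5 of 38 S phase genes (13.2%) and in 18.1% of 27025 promoters. CCAAT was in 76.2%, 60.5% and 37.9% of the same sets. TTTCCCGC or TTTGGCGC was in 2 of the 42 (4.76%), 12 of the 38 (31.6%) and 1.63% of all. These are counts of letters in the promoters and do not say which elements were in use.

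Of 50 mitosis and G2 genes, 45 were lower in KO_MSC and 0 higher, with a median log2 fold change of -2.76. Mki67 stood at 9.09, 107, 82.1 and 102 CPM in WT_MSC 1 to 4 and 6.09, 4.59, 8.19 and 2.79 CPM in KO_MSC 1 to 4 (log2 fold change -3.79 with SE 0.72, adjusted p by edgeR = 0.0266). Cdc20 stood at 7.75, 43.5, 33.1 and 38.6 CPM in WT_MSC 1 to 4 and 8.17, 3.62, 4.32 and 3.75 CPM in KO_MSC 1 to 4 (log2 fold change -2.63 with SE 0.53, adjusted p by edgeR = 0.0294). In Cdc20 the groups overlapped, since KO_MSC 1 exceeded WT_MSC 1, and in Mki67 they nearly touched. The geometric mean of the 50 genes was 4.05 CPM in WT_MSC 1, 29.5, 23.9 and 24.5 CPM in WT_MSC 2 to 4, and 4.12, 2.54, 3.37 and 2.17 CPM in KO_MSC 1 to 4. WT_MSC 1 was thus inside the knockout range. Without WT_MSC 1 all 50 were called lower, and in 50 of 50 WT_MSC 1 was nearer to the knockouts. The count was 23 without KO_MSC 1, 13 without KO_MSC 3 and 0 without any 1 of WT_MSC 2, 3 or 4 or KO_MSC 2 or 4.

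S phase genes showed the same order. Of 45, 14 were lower and 0 higher (median log2 fold change -1.09), and 34 were lower without WT_MSC 1. Mcm5 stood at 4.06, 50.6, 40.0 and 34.1 CPM in WT_MSC 1 to 4 and 3.73, 3.11, 2.16 and 2.57 CPM in KO_MSC 1 to 4 (log2 fold change -3.47 with SE 0.67, adjusted p by edgeR = 0.0276). The list's geometric mean was 5.98 CPM in WT_MSC 1, 13.0 to 15.9 CPM in WT_MSC 2 to 4 and 5.63 to 5.99 CPM in KO_MSC. Among 24 genes of G1 control and rest, 3 were higher and 1 lower. Gas6, a growth-arrest gene whose protein activates AXL and MERTK receptors, stood at 10081, 8945, 10628 and 9819 CPM in WT_MSC 1 to 4 and 14027, 15362, 15047 and 17039 CPM in KO_MSC 1 to 4 (log2 fold change 0.64 with SE 0.15, adjusted p by edgeR = 0.0346), and Gas1, another gene of arrested cells, at 507, 1125, 1165 and 1094 CPM in WT_MSC 1 to 4 and 1593, 2108, 2739 and 3024 CPM in KO_MSC 1 to 4 (log2 fold change 1.28 with SE 0.31, adjusted p by edgeR = 0.0373). In Gas6 WT_MSC 1 was level with the other wild types, and in Gas1 it was the lowest of all 8.

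**Figure D5:**
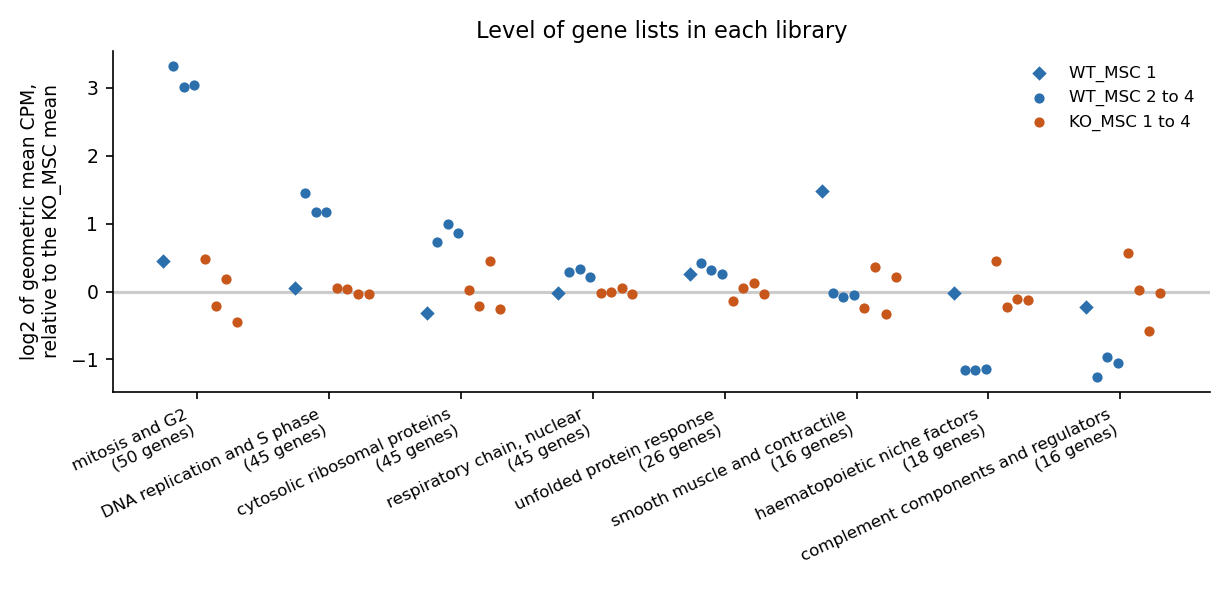
Level of 8 gene lists in each library, as log2 of the geometric mean CPM set to 0 at the KO_MSC mean (y axis), by list (x axis), with WT_MSC 1 as a diamond. In the mitosis, S phase and respiratory lists WT_MSC 1 lies with the knockout libraries, and in the ribosomal list it lies below the lowest of them. In the contractile list it lies above all others, and in the unfolded protein response list it lies with wild type.

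Cytosolic ribosomal protein genes had a median log2 fold change of -0.69, yet 0 of 45 passed edgeR's test with all 8 libraries, where 18 had an unadjusted p under 0.05 and DESeq2 called 10. Over all 13344 tested genes DESeq2 called 3274. Without WT_MSC 1, 40 of 45 were lower, and WT_MSC 1 was nearer to the knockouts in all 40. Their geometric mean was 83.0 CPM in WT_MSC 1, 172, 208 and 189 CPM in WT_MSC 2 to 4, and 105, 89.7, 142 and 86.4 CPM in KO_MSC 1 to 4. Nuclear genes of the respiratory chain followed, with 3 of 45 lower and 26 without WT_MSC 1. Ndufb8, a complex I subunit, stood at 53.7, 80.6, 79.1 and 80.5 CPM in WT_MSC 1 to 4 and 50.2, 50.8, 46.3 and 47.9 CPM in KO_MSC 1 to 4 (log2 fold change -0.59 with SE 0.14, adjusted p by edgeR = 0.034). Of the 13 mitochondrially encoded genes 0 passed edgeR's test, 2 had an unadjusted p under 0.05, and DESeq2 called 2. Without WT_MSC 1 edgeR called 5, where 46.0% of all tested genes were called.

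Several chaperones of the endoplasmic reticulum were lower. Of 26 genes of the unfolded protein response 5 were lower and 0 higher (median log2 fold change -0.31), and in each of the 5 WT_MSC 1 was level with the other wild types. The 5 were called with WT_MSC 1 included, which favours such genes. Without it 15 members were called, 3 higher and 12 lower, and WT_MSC 1 was nearer to the knockouts in 9 of the 15. Hspa5, the main chaperone BiP, stood at 1245, 1326, 1243 and 1176 CPM in WT_MSC 1 to 4 and 892, 909, 728 and 837 CPM in KO_MSC 1 to 4 (log2 fold change -0.57 with SE 0.12, adjusted p by edgeR = 0.03). Manf, a secreted stress-response factor, stood at 174, 182, 177 and 165 CPM in WT_MSC 1 to 4 and 112, 119, 92.8 and 109 CPM in KO_MSC 1 to 4 (log2 fold change -0.69 with SE 0.10, adjusted p by edgeR = 0.0129), and Hyou1, a large chaperone, at 227, 227, 202 and 203 CPM in WT_MSC 1 to 4 and 135, 162, 133 and 155 CPM in KO_MSC 1 to 4 (log2 fold change -0.55 with SE 0.10, adjusted p by edgeR = 0.0245). Hsp90b1 and the calcium-binding chaperone Calr were lower, with log2 fold changes of -0.52 and -0.46. These differences were small and the groups did not overlap in any of the 5.

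In the immune lists most genes called were higher. In the complement list 4 of 16 were higher and 0 lower. C1s1, a protease of the first complement component, stood at 153, 39.7, 54.2 and 54.0 CPM in WT_MSC 1 to 4 and 435, 311, 310.4 and 326 CPM in KO_MSC 1 to 4 (log2 fold change 2.20 with SE 0.42, adjusted p by edgeR = 0.0264), and Cfb, factor B of the alternative pathway, at 36.9, 13.8, 18.0 and 13.9 CPM in WT_MSC 1 to 4 and 142, 442, 41.7 and 506 CPM in KO_MSC 1 to 4 (log2 fold change 3.77 with SE 0.78, adjusted p by edgeR = 0.0301). KO_MSC 3 was close to WT_MSC 1 in Cfb. Interferon response genes gave 5 higher and 1 lower of 25. Slfn5 stood at 2.77, 0.272, 0.799 and 0.297 CPM in WT_MSC 1 to 4 and 25, 32.6, 6.94 and 33.5 CPM in KO_MSC 1 to 4 (log2 fold change 4.55 with SE 0.83, adjusted p by edgeR = 0.0245), and its family member Slfn9 was lower (6.11 ± 2.73 against 1.49 ± 0.455 CPM, log2 fold change -2.04, adjusted p by edgeR = 0.0305). Antigen presentation gave 4 higher and 1 lower of 16, with the peptide transporter gene Tap2 at 28.3 ± 5.26 against 44.0 ± 3.75 CPM (log2 fold change 0.64, adjusted p by edgeR = 0.0311) and the classical class I gene H2-D1 lower (134 ± 29.0 against 80.3 ± 11.6 CPM, log2 fold change -0.74, adjusted p by edgeR = 0.0391). In H2-D1, WT_MSC 1 at 90.4 CPM was below KO_MSC 4 at 96.4 CPM.

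The largest increases among well-expressed genes came with wide spread in KO_MSC. Scara5, a ferritin receptor, stood at 222, 58.2, 82.5 and 75.1 CPM in WT_MSC 1 to 4 and 672, 1281, 889 and 1429 CPM in KO_MSC 1 to 4 (log2 fold change 3.29 with SE 0.48, adjusted p by edgeR = 0.014). Cilp, a cartilage matrix protein that binds TGF-beta, stood at 541, 262, 348 and 302 CPM in WT_MSC 1 to 4 and 1069.8, 2692, 1751 and 3275 CPM in KO_MSC 1 to 4 (log2 fold change 2.6 with SE 0.39, adjusted p by edgeR = 0.0146). Dio3, an imprinted gene whose enzyme inactivates thyroid hormone, stood at 103, 48.2, 54.5 and 53.4 CPM in WT_MSC 1 to 4 and 920.4, 417, 1014 and 375 CPM in KO_MSC 1 to 4 (log2 fold change 3.39 with SE 0.43, adjusted p by edgeR = 0.00931). Every knockout library exceeded every wild type library in these 3 genes, as the rule that chose the largest changes requires. WT_MSC 1 was the highest wild type in each. Gem, a small GTPase that limits calcium channels, was 3.13 ± 2.02 CPM across WT_MSC (SD, n = 4) and 31.1 ± 11.2 CPM across KO_MSC (SD, n = 4) (log2 fold change 3.31, adjusted p by edgeR = 0.0135), and Apod, a lipid carrier of resting fibroblasts, was 4.42 ± 3.96 CPM across WT_MSC (SD, n = 4) and 76.8 ± 50.4 CPM across KO_MSC (SD, n = 4) (log2 fold change 4.11, adjusted p by edgeR = 0.0253). Adh1, an alcohol dehydrogenase that acts on retinol, stood at 0.923, 2.10, 2.18 and 2.32 CPM in WT_MSC 1 to 4 and 4.93, 12.7, 55.6 and 19.1 CPM in KO_MSC 1 to 4 (log2 fold change 3.62, adjusted p by edgeR = 0.0299).

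MSC recovered after 48 h with MLL-AF9 leukaemia cells, 5 WT_MSC_AML and 3 KO_MSC_AML libraries, share no library with the MSC above. There 4306 of 13710 genes were called between the genotypes (31.4%). The WT_MSC_AML libraries all carried Ddx3y (46.5 CPM or more) and Xist at 6.83 CPM or less. The KO_MSC_AML libraries all carried Xist (338 CPM or more) and Ddx3y at 0.860 CPM or less, so in co-culture sex and genotype cannot be told apart. Of the 1545 genes called in MSC alone, 1529 could be tested, and 1490 had the same direction (97.4%, against 80.2% of all genes tested in both). Of these, 946 were called the same way (61.9%, against 30.4% of all genes tested in both). Another 2 were called the opposite way. All of the 51 genes other than Lama4 that held with any library left out had the same direction, and 37 were called (72.5%, against the same 30.4%). The WT_MSC_AML libraries shared Ddx3y and the chromosome displacement given below with WT_MSC 2 to 4. The part of these in the overlap was not tested.

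Single genes carried over to different extents. Hoxb9 was 62.6 ± 10.0 CPM across WT_MSC_AML (SD, n = 5) and 0.982 ± 0.571 CPM across KO_MSC_AML (SD, n = 3) (log2 fold change -5.99, edgeR adjusted p = 6.74e-07), and Kitl was 28.6 ± 6.25 CPM across WT_MSC_AML (SD, n = 5) and 67.0 ± 9.56 CPM across KO_MSC_AML (SD, n = 3) (1.23, 0.000559 in the same units). Nid2 had a log2 fold change of 0.43 that did not pass (adjusted p = 0.136), nor did Fabp5 (-0.56, adjusted p = 0.166) or Gas6 (0.33, adjusted p = 0.552). Of the mitosis and G2 genes 49 of 50 were lower (median -1.41), and of the ribosomal protein genes 5 of 45. The complement list had 2 genes called higher and 3 lower of 15, and antigen presentation 1 higher and 2 lower of 18. Interferon response genes gave 13 higher and 1 lower of 28. The chromosome medians repeated. Set against the KO_MSC mean, all 5 WT_MSC_AML libraries were between -0.37 and -0.18 on chromosomes 3, 4, 5, 7, 12 and 16 and between 0.31 and 0.45 on 8, 18 and 19, and the 3 KO_MSC_AML libraries stayed between -0.06 and 0.08 on all 9. WT_MSC 1 was therefore the only wild type MSC library of 9 without this displacement.

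The authors' deposited table for the same comparison lists 4142 genes at an adjusted p under 0.05, 1837 higher and 2305 lower. It shares 1493 of the 1545 edgeR calls, all in the same direction, which is 36.0% of its own list, and all 52 genes called with any library left out. Genes given above as called that do not pass there include Lamb1 (the authors' DESeq2 adjusted p = 0.0567), Pdgfra (0.11), Prrx1 (0.218), Nes (0.0528) and Gas6 (0.216).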

How the data were processed

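RNA of 8 MSC libraries cultured alone (4 WT_MSC, 4 KO_MSC) was analysed, beside 8 co-cultured MSC libraries of the same series. Per the labels' protocols, the SMART-Seq v4 kit made the cDNA, sequenced as 75 bp single-end reads. The authors deposited raw counts per gene, which per the file headers come from STAR and featureCounts. The submitters' processing notes name STAR 2.6.1d and the build GRCm38/mm10, although the file header names a human build beside the mouse species. Neither strand setting nor annotation version was given in the sources used here, so reads of overlapping genes may be mixed. The authors' deposited log2 fold changes and adjusted p-values were made with DESeq2 per the file headers and serve only where they are named. Some results are not reported here. The 22 columns of the authors' normalized counts were not used.

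The raw counts were fitted with edgeR 4.0.16 (R 4.3.3): TMM normalization, filterByExpr, robust quasi-likelihood F-test, two-sided, Benjamini-Hochberg adjusted p under 0.05 over all genes tested. Only the 2 groups compared entered a fit. The table has 27179 genes with an ID, of which 1275 without a symbol took 0.620% to 0.825% of a library's counts and stayed in the fits. Depth was 15595872 to 24826876 counts. Intervals cover counting error only, since reads carry no molecular identifiers. The smallest chi-square statistic between libraries of a group was 4.26 per degree of freedom. On simulated counts with 200 changed genes (13217 tested), 45.5% of 2-fold and 88.9% of 4-fold changes were recovered, 0 in the wrong direction, with 6 false calls. The simulated counts held no library that stood apart as WT_MSC 1 does.

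The libraries, gene lists, naming rule and comparisons were chosen with earlier results of these data known. The rule names Lama4, the 20 largest changes in each direction among genes with a mean log2 CPM of at least 3, a named symbol and no overlap between groups, and the 15 largest in each direction among genes called with any library left out. It also names up to 3 members a list and direction, genes within 10 Mb of Lama4, and the 10 most abundant genes called in each direction; the text gives part of these. Dclk1, Cxcl12, Lamc1, Cdc20 and the marker genes were named after their values were seen. Of the genes tested, 13053 matched RefSeq positions (GRCm38.p6). Alternatives were DESeq2 1.42.0, DESeq2 size factors, no filter, no robust shrinkage, voom with sample weights (limma 3.58.1), a replicate block, all 16 MSC libraries in 1 fit, and subsets of libraries.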

Additional observations from a re-analysis of the deposited data

Results flagged for a closer look

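Within each group of 4, a library was picked out for a gene where its gap to the nearest other library exceeded Dixon's 95% critical value as a share of the group's range. For independent, normally distributed values chance alone does so in about 1 in 20 groups. The genes here were chosen with these data known and are not independent, so that rate is no yardstick for the count below. Of 256 groups (128 genes in WT_MSC and KO_MSC) 38 met this, with WT_MSC 1 as the library apart in 29, KO_MSC 1 in 7, and WT_MSC 2 and KO_MSC 3 in 1 each.

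In WT_MSC 1 the higher genes included Col18a1 at 125 CPM (others 45.4 to 48.8), Agrn at 39.4 CPM (others 18.0 to 19.8), Col14a1 at 195 CPM (others 58.5 to 63.4) and Adamts1 at 375 CPM (others 148 to 160.0). Matrix, signalling and other genes higher there were Csrp1 at 928 CPM (others 612 to 641), Pappa2 at 28.7 CPM (others 11.9 to 14.0), Ptgfr at 9.05 CPM (others 4.16 to 4.63) and Hoxc12 at 9.78 CPM (others 7.86 to 8.08). Higher in the same library were Btg2 at 332 CPM (others 199.8 to 221), C1s1 at 153 CPM (others 39.7 to 54.2), Ifi27 at 68.3 CPM (others 52.7 to 54.1) and Arhgap20 at 20.2 CPM (others 3.15 to 5.54). Also above the other wild types were Dio3 at 103 CPM (others 48.2 to 54.5), Scara5 at 222 CPM (others 58.2 to 82.5) and Dpep1 at 517 CPM (others 205 to 242).

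WT_MSC 1 was lower than the other wild types in Wnt10b at 0.785 CPM (others 7.30 to 8.26), Hoxb8 at 2.77 CPM (others 7.88 to 8.87), Hoxc5 at 1.62 CPM (others 3.42 to 3.46) and Alx4 at 0.785 CPM (others 9.10 to 10.7). It was lower as well in Msx2 at 13.1 CPM (others 22.8 to 24.2), Cd200 at 1.94 CPM (others 5.22 to 5.70), Dlx5 at 8.03 CPM (others 17.0 to 18.2) and Cdc25c at 1.29 CPM (others 9.80 to 10.8). The lower genes also included Gas1 at 507 CPM (others 1094 to 1165), H2-D1 at 90.4 CPM (others 147 to 149.8), Gatm at 5.58 CPM (others 20.3 to 21.1) and Adh1 at 0.923 CPM (others 2.10 to 2.32). Among those below were Tmem158 at 3.05 CPM (others 8.44 to 9.41) and Ndufb8 at 53.7 CPM (others 79.1 to 80.6).

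KO_MSC 1 stood above the other knockouts in Sox9 at 70.9 CPM (others 38.0 to 43.1), Cdc20 at 8.17 CPM (others 3.62 to 4.32), C1s1 at 435 CPM (others 310.4 to 326), C1ra at 236 CPM (others 139 to 153) and Psmb8 at 8.83 CPM (others 5.29 to 5.79). It stood below them in Pdgfra at 320.4 CPM (others 488 to 515) and Smpdl3a at 65.0 CPM (others 81.0 to 82.3). KO_MSC 3 was above the rest in Hoxc12 at 19.8 CPM (others 13.1 to 13.3), and WT_MSC 2 was below the rest in Lama4 at 288 CPM (others 306 to 309).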

How the results depend on the processing

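Every count of calls between KO_MSC and WT_MSC depended on the libraries and the tool. In place of 1545 genes (699 higher, 846 lower), DESeq2 called 3274 (1447 and 1827), all 16 MSC libraries in 1 fit 2977 (1300 and 1677), voom with sample weights 8122 (4167 and 3955) and the 5 libraries with Ddx3y and without Xist 8178 (4112 and 4066). DESeq2 size factors, no filter on low counts and no robust shrinkage kept the count within 1.5 times (1566, 1165 and 1570). With a replicate block the count was 270 (181 higher, 89 lower), but the numbers were not taken as pairs, since deviations of same-numbered libraries from their group means correlated at 0.201, -0.0467, 0.257 and -0.0578. Leaving out 1 library gave 55 to 6242 genes, 32 to 3270 higher and 23 to 2972 lower.

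Genes of the lists called, 177 with all libraries, were 336 with DESeq2, 289 with 16 libraries, 721 with voom, 775 in the 5 libraries, 39 with the block, and 8 to 583 with 1 library left out. Of the 128 named genes 123 were called. That was 46 with the block and 29 to 123 with 1 library left out. The co-culture count of 4306 was 1157 with the block and 2958 to 4535 with 1 library left out. The log2 fold change of Fam229b, which was not called, changed sign, at 0.036 with the block and -0.17 to 0.10 with 1 library left out, above 0 without KO_MSC 1, WT_MSC 3 or WT_MSC 4. No other gene of these 128 changed direction in any alternative run. Genes named in the text outside the 128, among them Cxcl12 and Dclk1, were not part of this check. The cause of these changes was not tested.

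Alternatives chosen after the data were seen kept their counts within 1.5 times. WT_MSC 1 was nearer to KO_MSC in 4869 of 6242 genes with a pseudocount of 2 and 4860 with group medians, against 4881. The 9 displaced chromosomes were 9 to 13 under the other fits and 9 with no expression minimum. With 4 libraries a group at this depth, 45.5% of simulated 2-fold changes and 88.9% of 4-fold changes were called, so a gene that was not called may still differ. No simulated library stood apart as WT_MSC 1 does, so recovery in these data may be other than simulated.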
